A study of Mus musculus with 33 samples.

Results

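The mitochondrial protein import machinery was described in cardiomyocytes of mouse lines that lack Ptpmt1. Its members are the genes whose symbol starts with Timm or Tomm followed by a digit, plus Pam16, Dnajc15, Dnajc19, Grpel1, Grpel2, Samm50, Mtx1, Mtx2, Chchd4, Gfer, Pmpca, Pmpcb, Romo1 and Mipep. This rule found 40 genes among the 32245 rows of each deposited table, and it read gene names only, not levels. RNA, given as nuclear RNA in the labels, was sequenced from cardiomyocytes after removal of ribosomal RNA, and the series covers 33 samples in 4 lines. In the FST line, 3 controls, 3 libraries of an Eif2alpha mutant, 3 of a cardiomyocytes-specific Ptpmt1 knockout and 3 of both together were compared. The PHT line had 2 controls, 2 Hri knockouts, 3 Ptpmt1 knockouts and 2 doubles, with both single knockouts labelled cardiomyocytes-specific. In the PTGC line, 3 controls were set against 3 doubles that lack Ptpmt1 in cardiomyocytes and also carry a Gcn2 knockout. A line with the Ptpmt1 knockout alone (6 samples) was not analysed here, which left 27 libraries. The sources used here do not give the alleles of the controls, the Cre driver, the Eif2alpha mutation itself or the age of the mice.

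Nearly all mitochondrial proteins are made in the cytosol and enter through the TOM complex of the outer membrane, after which the SAM complex inserts barrel proteins, TIM23 and its motor take matrix proteins, TIM22 takes carriers, and the MIA pathway folds small proteins of the intermembrane space. Cardiolipin, the lipid whose synthesis needs the phosphatase Ptpmt1, sits in the inner membrane where the TIM complexes work. Import defects and other mitochondrial stress can lead to phosphorylation of eIF2, by kinases that include Hri and Gcn2, and so to the integrated stress response (ISR), in which the transcription factor Atf4 raises genes of amino acid synthesis.

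Libraries held 1887978 to 19405261 reads in genes (recovered from the normalized counts), and Ptpmt1 was low in every group labelled as lacking it. Ptpmt1 was at 163 ± 10.3 normalized counts (mean ± SD, n = 3) in FST controls and 35.5 ± 4.71 in knockouts, 265 ± 33.6 (n = 2) and 48.8 ± 13.8 (n = 3) in PHT, and 328 ± 35.4 and 71.2 ± 4.48 (n = 3 each) in PTGC controls and doubles. The doubles were at 45.2 ± 4.87 (n = 3) in FST, overlapping the knockouts, and at 77.4 ± 0.957 (n = 2) in PHT, both above all knockouts. In FST, double replicate 2 had the lowest depth and Eif2a mutant replicate 1 the fewest genes with reads, 15157. The 12 cardiomyocyte markers took 5.66 to 8.61% of the signal over all libraries, fibroblast markers 0.114 to 0.291% and endothelial markers 0.0982 to 0.127%, and 2 of 7 lymphocyte markers, Cd3e and Ms4a1, had 0 reads throughout FST. Libraries with a male pattern of sex-linked genes were 1 of 3 controls and 3 of 3 Ptpmt1 knockouts in FST, 0 of 2 controls and 1 of 3 Ptpmt1 knockouts in PHT, and 2 of 3 in each PTGC group. Nothing in the labels says whether libraries of a group come from separate animals, so p-values measure only the spread between these samples.

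Promoters were looked at first, since they show sequence that many members share. RefSeq promoters (GRCm38.p6, 250 bases before to 50 after each start) were found for 36 of the 40 genes and not for Grpel2, Timm21, Tomm40l and Tomm7. The ETS core CCGGAAG, read on both strands, stood in 15 of these 36 genes (41.7%), against 18.8% of the 11309 tested genes with a promoter and 9.93% of all 27025 RefSeq genes. The NRF1 core GCATGCGC, named for a factor known for mitochondrial genes, stood in 2 of 36 (5.56%), against 5.69% of tested genes. The C/EBP-ATF core TGATGCAA, known from Atf4 targets, stood in 0 of 36, against 0.699% of tested genes and 1 of the 8 stress response genes described further on. These are matches of letters and are given as a description. Stretches of 30 bases were chosen because they hold a motif, and they show how it sits in 7 members with the ETS core, in 1 with the NRF1 core and, as the contrast, in the stress response gene Chac1. Tomm6 and Tomm40, described further on, held none of the 3 motifs in this window. Each reads 5′ to 3′ along the gene's strand, with motif letters in capitals on either strand.
Romo1 (chr2:156144173-156144202, plus strand): CCGGAAGtaactgcgctgtgctCCGGAAGc
Tomm70a (chr16:57121684-57121713, plus strand): gtctagcccggcatgccccgggCTTCCGGt
Tomm22 (chr15:79670813-79670842, plus strand): ccggctcgCTTCCGGAAGacgctctgtcca
Timm23 (chr14:32201920-32201949, minus strand): cgcgcttcccaCTTCCGGgccgcacacagc
Pmpca (chr2:26389284-26389313, plus strand): ggctcggcgggCCGGAAGccagcgccgaac
Pmpcb (chr5:21737130-21737159, plus strand): cctggagtcatgacCCGGAAGtacatctcc
Timm8b (chr9:50603871-50603900, plus strand): ggcaacctgaagcgtgaaCCGGAAGgcagg
Grpel1 (chr5:36465138-36465167, plus strand): aaggggcgtccGCGCATGCtcagtgtgggc
Chac1 (chr2:119351038-119351067, plus strand): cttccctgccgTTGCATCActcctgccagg
The first 7 show the ETS core, which Romo1 carries 2 times on the same strand within the stretch shown. In Tomm22 a match on each strand overlaps the other. Grpel1 shows the NRF1 core and Chac1 the C/EBP-ATF core, both on the reverse strand.

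The import genes covered a wide range of levels. They are compared per kilobase of exon here, in controls. In FST the small TOM subunit Tomm6 stood highest at 607 ± 59.5 normalized counts per kilobase (SD, n = 3), and the small chaperone Timm8b was next at 598 ± 20.5. These 2 did not differ beyond their spread. The level of Tomm6 is uncertain, since its exons overlap those of other genes over 93.3% of their length. The beta subunit of the presequence peptidase, Pmpcb, followed at 531 ± 18.3, and Tomm40, the channel of the outer membrane, at 426 ± 82.3. The same 4 genes led in PHT, and in PTGC Tomm40 stood just behind the receptor Tomm22. Pmpcb was highest in PHT (799 ± 64.5, n = 2) and Timm8b in PTGC (1037 ± 79.4, n = 3). At the low end of the tested genes were Dnajc19, a motor subunit, at 20.1 ± 2.62 and Timm8a1, a partner of the small chaperone Timm13, at 6.92 ± 3.52 in FST. Tomm6os, an antisense RNA whose name the rule also takes, was at 2.83 ± 1.05.

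Of the 40 genes, 38 passed the filter on low values in each table (a normalized count of at least 10 in a number of libraries equal to the size of the smallest group). The other two, Timm8a2 and Tomm20l, are paralogs of Timm8a1 and Tomm20 and had at most 5 reads in any library. Summed over all members, import transcripts took 0.168 to 0.200% of the signal in every library. In FST the range was 0.173 to 0.183% in controls and 0.168 to 0.183% in Ptpmt1 knockouts, and in PHT it was 0.173 to 0.179% and 0.175 to 0.180%. In PTGC, controls took 0.184 to 0.200% and doubles 0.169 to 0.186%. The groups overlapped in each table. In such bulk libraries fewer cells of a type and less RNA per cell cannot be told apart.

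**Figure D1:**
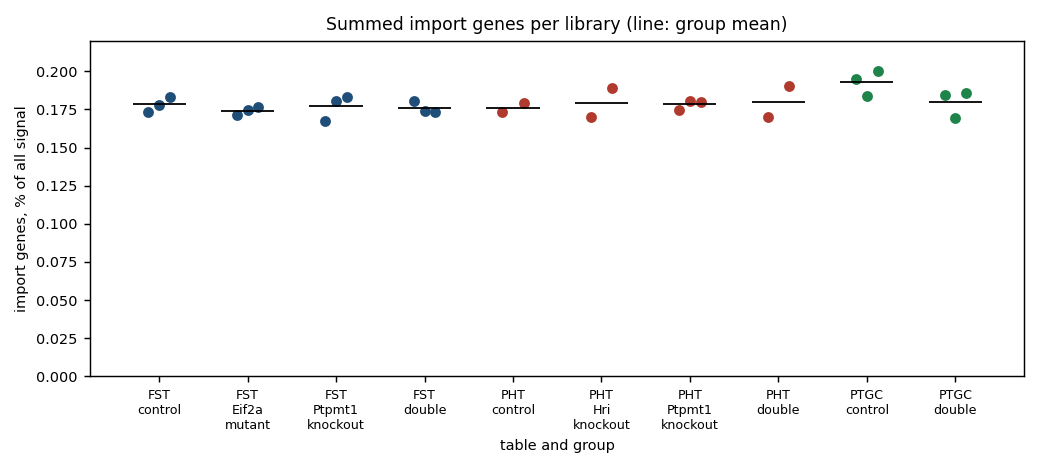
Summed normalized counts of the 40 import genes as a percentage of all signal, by table and genotype group, with 1 point per library and a line at each group mean. The points lie between 0.168 and 0.200%, and genotype groups overlap within each table.

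Not 1 of the 38 tested members was called in any of the 13 comparisons, where called means an adjusted p under 0.05 (limma on log2(value + 1), Benjamini-Hochberg over all genes tested). In FST the share of all 13896 tested genes called was 0.504% for the Ptpmt1 knockout against control, 0.036% for the Eif2a mutant against control, 0.144% for the double against control, 0.878% for the double against the Ptpmt1 knockout, 0.0072% for the double against the Eif2a mutant and 0.0216% for the interaction. Interaction here means how far the effect of losing Ptpmt1 shifted when the second mutation was also present. In PHT (14965 genes) the shares were 0.301% for the Ptpmt1 knockout against control, 0.02% for the Hri knockout against control, 0.0267% for the double against control, 0.327% for the double against the Ptpmt1 knockout, 0.02% for the double against the Hri knockout and 0.12% for the interaction. In PTGC (14128 genes) it was 0.743% for the double against control. At such shares a count of 0 among 38 genes lies near the background. At an unadjusted p under 0.05 there were 28 of 494 gene-comparisons, and the smallest adjusted p was 0.112. With edgeR on recovered reads 0 members were called in any comparison, and with DESeq2 1 was, Tomm6 in the FST Ptpmt1 knockout, where DESeq2 called 353 of 13896 genes (2.54%), so that 1 of 38 is again near the background.

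The median absolute log2 fold change was 0.113 over the 494. Within single comparisons it was near that of all genes tested, with 0.153 against 0.158 in the FST knockout, 0.066 against 0.104 in the PHT knockout and 0.137 against 0.15 in the PTGC double. In 407 of the 494 the unadjusted 95% interval lay within 1.5-fold either way (0.58 on the log2 scale). For the Ptpmt1 knockout against control this held for 29 of 38 members in FST, where it held for 58% of all genes tested, and for 36 of 38 in PHT, against 66%. In PTGC it held for 34 of 38, against 65.9%. The width of an interval depends on the level of a gene, and members were not matched for level with all genes tested. These shares therefore do not show that import genes are steadier than other genes of like level. Stress response genes in the same libraries moved much further. Of a panel of 8 (Atf4, Atf5, Ddit3, Asns, Trib3, Mthfd2, Psat1 and Chac1), chosen as known ISR genes, 7 were called higher in the FST knockout, 8 in the PHT knockout and 8 in the PTGC double. The member not called in the FST knockout, Ddit3, was also above 0 there (1.10 ± 0.40, adjusted p = 0.243, limma). Asns, which makes asparagine, had a log2 fold change of 2.36 ± 0.15, 2.14 ± 0.17 and 2.64 ± 0.11 in these 3, with adjusted p = 1.56e-06, 3.1e-05 and 3.28e-07 (limma). Against the Ptpmt1 knockout, 7 of the 8 were called lower in the FST double and 7 in the PHT double. Ddit3 was at -0.98 ± 0.40 in the FST double (adjusted p = 0.289, limma), not called. With any 1 library left out, 5 to 7 were called in the FST knockout and 5 to 8 in the PHT knockout. Against the Ptpmt1 knockout, 3 to 7 were called in the FST double and 6 to 7 in the PHT double.

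**Figure D2:**
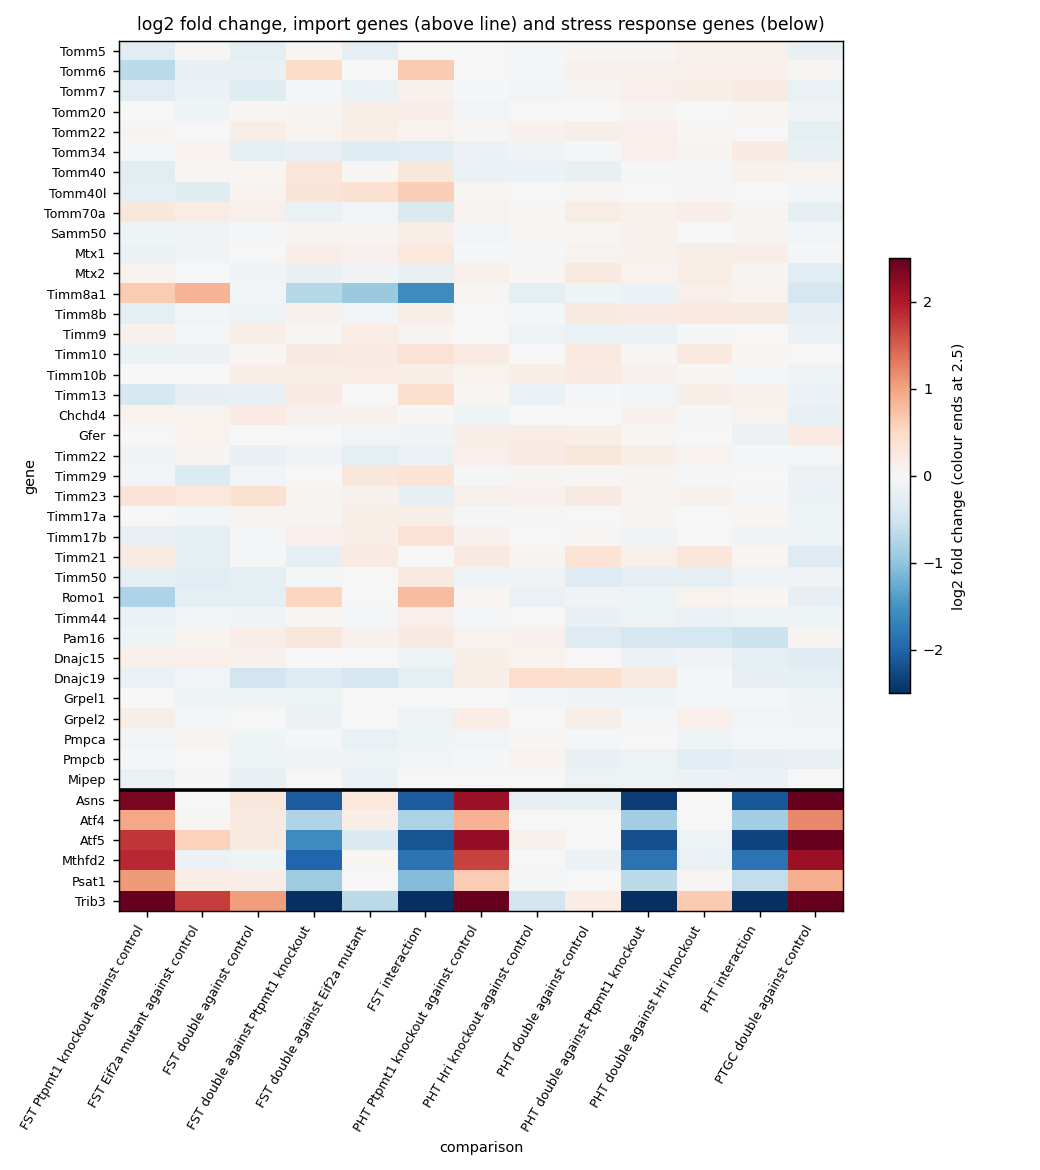
Colour gives the log2 fold change on the log2(value + 1) scale, by gene (rows: 37 protein-coding import genes above the line, 6 stress response genes below it) and comparison (columns, by table). The stress response rows reach the ends of the scale. The import rows stay paler, with the farthest values in Timm8a1 (-1.57 in the FST interaction, on at most 40 reads in any FST library) and Romo1 (-0.76 in the FST knockout).

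**Figure D3:**
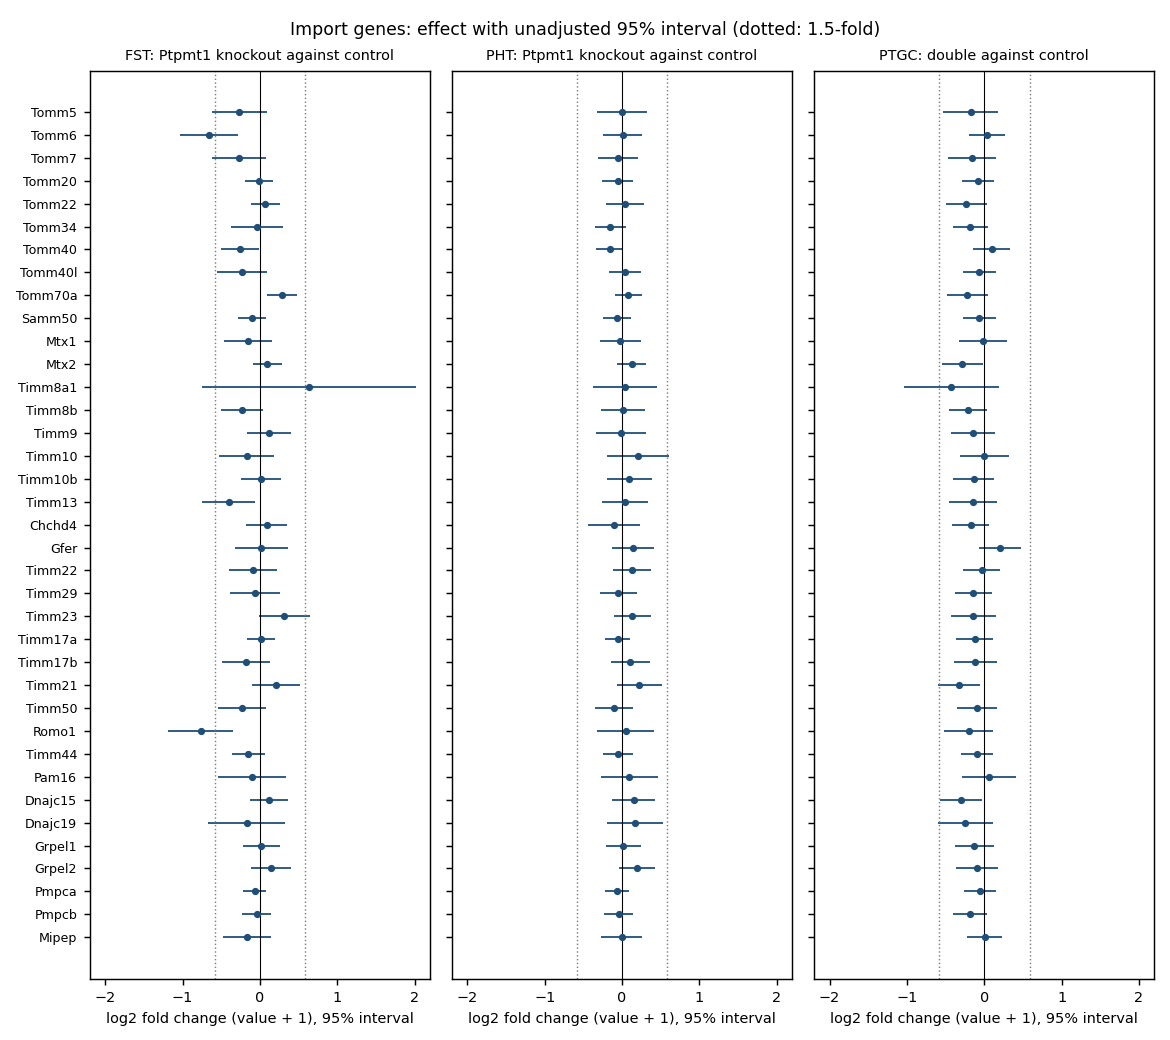
Points show the log2 fold change and bars the unadjusted 95% interval of 37 protein-coding import genes in the FST and PHT Ptpmt1 knockouts and the PTGC double, each against its controls, with dotted lines at 1.5-fold. Most bars lie between the dotted lines, with Romo1 and Tomm6 to the left in FST.

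Loss of Ptpmt1 alone was examined in FST first. Among the 38 members 0 were called with limma, 5 had an unadjusted p under 0.05 (13.2%, against 13.4% of all genes), and 23 had a log2 fold change below 0, as had 51% of all genes. Romo1, a small inner membrane protein that works with TIM23 (chromosome 2, 156144039 to 156145797, GRCm38), had the lowest p. Its normalized counts were 212, 250.2 and 238 in the controls, 159.8, 210.0 and 235 in the Eif2a mutants, 107, 128 and 186 in the Ptpmt1 knockouts and 226, 164 and 212 in the doubles. All 3 knockouts lay below all 3 controls, with replicate 3 closest. The log2 fold change, on the log2(value + 1) scale, was -0.76 ± 0.20 (SE; adjusted p = 0.112), and values written after ± in later fold changes are standard errors too. Tomm6, a small subunit that stabilises the TOM complex (chromosome 17, 47686646 to 47688386), had 438, 491 and 533 in controls, 353, 492 and 455 in Eif2a mutants, 251, 262 and 437 in knockouts and 412, 419.9 and 443 in doubles. Knockout replicate 3 lay just under the lowest control and far from the other two. The log2 fold change was -0.66 ± 0.18 (SE; adjusted p = 0.121). The exons of Tomm6 overlap those of Gm21981, Tomm6os and Usp49 over 93.3% of their length, and those of Romo1 overlap Nfs1 over 19.8%, so reads of these genes could not be told apart without a strand setting.

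Tomm70a, the receptor for carrier precursors, lay on the other side of 0, with 1416, 1391 and 1415 in controls and 1759, 1894 and 1515 in knockouts. All knockouts lay above all controls, and the log2 fold change was 0.29 ± 0.09 (SE; adjusted p = 0.199). Timm13, a small chaperone of the intermembrane space, was at -0.40 ± 0.16 and Tomm40 at -0.26 ± 0.12 (adjusted p = 0.292 and 0.349). In PHT the same contrast gave 0.05 ± 0.17 for Romo1, 0.01 ± 0.12 for Tomm6 and 0.08 ± 0.08 for Tomm70a. The difference between the 2 tables was not tested, since they were normalized separately.

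**Figure D4:**
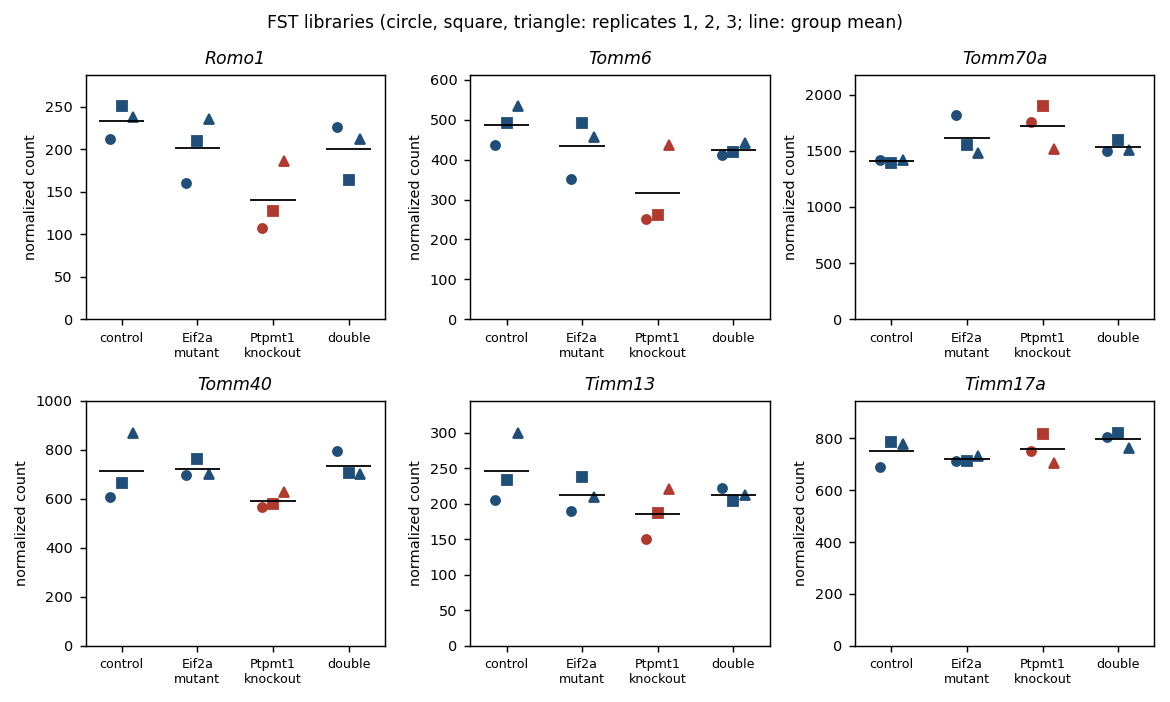
Normalized counts of 6 import genes in the 12 FST libraries by genotype group, with a shape for each replicate number and a line at the group mean. In Romo1 and Tomm6 the knockouts of replicates 1 and 2 lie lowest and replicate 3 nearer the controls, while in Timm17a the knockouts overlap the controls.

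Whether these members were called turned on 1 library. Without Ptpmt1 knockout replicate 3, Romo1 was at -0.99 (adjusted p = 0.00786), Tomm6 at -0.92 (adjusted p = 0.00235) and Tomm70a at 0.37 (adjusted p = 0.0228), all called by limma, but so were 847 of 14108 genes (6.004%). That library had erythroid markers at 0.0452% and fibroblast markers at 0.291% of the signal, against 0.0105 and 0.0112% and 0.150 and 0.148% in the other knockouts. FST controls ranged from 0.0107 to 0.0447% for erythroid and from 0.135 to 0.164% for fibroblast markers. Markers of mural cells took 0.0513 to 0.0647% in FST knockouts and 0.0672 to 0.0777% in FST controls, without overlap. In PHT they lay the other way, with 0.06605 to 0.0704% in knockouts and 0.0633 to 0.0641% in controls. Erythroid markers took 0.01455 to 0.0607% in PHT knockouts and 0.0706 to 0.0898% in PHT controls. The part of these markers in the result was not tested. With the male pattern as a term, Romo1 was at -0.60 (adjusted p = 0.695) and Tomm6 at -0.61 (adjusted p = 0.662). Members with a coding length under 350 bases, among them Romo1, Tomm5, Tomm6 and Tomm7, had a median of -0.25 in the FST knockout (7 of 10 below 0), against -0.04 in the 27 longer ones. Over all 384 tested genes of that length the median was -0.07, and 62.8% were below 0. By library, the median of the 10 short members relative to the control mean was -0.45, -0.21 and -0.09 in knockouts 1, 2 and 3. It was -0.06, -0.23 and -0.11 in doubles 1, 2 and 3 and -0.03, -0.07 and -0.10 in the Eif2a mutants. Controls 1, 2 and 3 were at -0.08, -0.003 and 0.06, so knockout 3 lay close to control 1. In the FST double against control the short members had a median of -0.16, with 7 of 10 below 0. In PHT the 10 short members had a median of 0.02.

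Whether the Eif2alpha mutation altered these values in the absence of Ptpmt1 was asked by setting the FST double against the Ptpmt1 knockout. Of 38 members 0 were called (limma) and 3 had an unadjusted p under 0.05 (7.89%, against 13.8% of all genes). Romo1 was higher in 2 of 3 doubles than in any knockout, and its log2 fold change was 0.54 ± 0.20 (SE; adjusted p = 0.232). Tomm40 had 565, 579 and 628 in knockouts and 794, 707 and 700.2 in doubles, without overlap, and a log2 fold change of 0.31 ± 0.12 (SE; adjusted p = 0.235). Tomm6 was at 0.47 ± 0.18 (SE; adjusted p = 0.246). Without the 2 libraries that stood apart in FST, 0 members were called in any comparison. Without knockout replicate 3, Romo1 (0.76, adjusted p = 0.0451) and Tomm6 (0.72, adjusted p = 0.0145) were called, with 2.30% of all genes. In the interaction 0 of 38 were called and 4 had an unadjusted p under 0.05 (10.53%, against 7.06%). Tomm40l, a paralog of the channel Tomm40, had 367, 327 and 379 in controls, 222, 323 and 337 in Eif2a mutants, 260.1, 303 and 355 in knockouts and 400.0, 380.1 and 357 in doubles. Its interaction was 0.62 ± 0.21 (SE; adjusted p = 0.62), and that of Romo1 was 0.76 ± 0.28 (SE; adjusted p = 0.638). The comparisons of the double with the knockout share the knockout libraries with those before it.

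The remaining FST comparisons called 0 of 38 members each. For the Eif2a mutant against control, 1 member had an unadjusted p under 0.05, against 7.97% of all genes. This was Timm29, a subunit of TIM22, with 308, 327 and 366 in controls and 203, 289.6 and 302 in mutants (-0.35 ± 0.15, adjusted p = 0.595). The first mutant library, which had the fewest genes with reads, was the lowest. Tomm70a came next at 0.19 ± 0.09 (SE; adjusted p = 0.633), with 1818, 1554 and 1479 in the mutants, all above the controls. For the double against control, 1 member passed that unadjusted p, against 10.1% of all genes. Timm23, the channel of the inner membrane, had 133, 119.7 and 99.3 in controls and 141, 168 and 148 in doubles (0.38 ± 0.16, adjusted p = 0.419), and did not overlap. Dnajc19 had 82.3, 68.99 and 89.7 in controls and 75.5, 39.8 and 60.9 in doubles (-0.48 ± 0.23, adjusted p = 0.505). These overlapped in part, with the shallow second double lowest. For the double against the Eif2a mutant the lowest p were those of Tomm40l (0.39 ± 0.15, adjusted p = 0.587) and of Pmpca, the alpha subunit of the presequence peptidase (-0.17 ± 0.07, adjusted p = 0.587), and 2 members had an unadjusted p under 0.05, against 8.14% of all genes.

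The PHT line gave the same count. For the Ptpmt1 knockout against control 0 of 38 were called and 1 had an unadjusted p under 0.05, against 4.79% of all genes, and the median log2 fold change was 0.03. The lowest p was that of the antisense RNA Tomm6os, with 10.4 and 4.77 in controls and 28.7, 15.04 and 17.01 in knockouts (1.34 ± 0.61, adjusted p = 0.999), a gene of few reads that overlaps Tomm6. Tomm40 followed, with 1355 and 1300.1 in controls and 1176, 1162 and 1226 in knockouts. The knockouts lay below both controls, and the log2 fold change was -0.16 ± 0.08 (SE; adjusted p = 0.999). For the Hri knockout against control, where 3.24% of all genes had an unadjusted p under 0.05, 1 member had, the motor subunit Dnajc19, with 151 and 115 in controls and 174 and 184 in Hri knockouts (0.44 ± 0.19, adjusted p = 0.9998). Timm22, the carrier translocase, was next, with 341 and 380.5 in controls and 386 and 448 in Hri knockouts (0.21 ± 0.12, adjusted p = 0.9998). Both Hri knockout libraries lay above both controls for each gene, but these genes were picked by their p. Every Hri knockout and double library had a male pattern and no PHT control had one. Only the Ptpmt1 knockouts held both patterns, with 1 male of 3, so a term for the pattern rested on that 1 library. With this term Dnajc19 was at 0.32 and Timm22 at 0.29, which cannot separate the pattern from the genotype.

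In the PHT double against control 0 members were called and 4 had an unadjusted p under 0.05 (10.53%, against 6.58% of all genes). Timm50, the TIM23 receptor, had 676 and 613 in controls, 608 and 601 in Hri knockouts, 541, 621 and 640.3 in Ptpmt1 knockouts and 454 and 580.0 in doubles (-0.33 ± 0.13, adjusted p = 0.714). Timm21, which links TIM23 to the TOM complex and the respiratory chain, had 272 and 256 in controls and 310.2 and 364 in doubles (0.35 ± 0.15, adjusted p = 0.75). For each gene both doubles lay outside the range of the controls, but these genes too were picked by their p. With the male pattern as a term, which here too rested on 1 Ptpmt1 knockout library, Timm50 was at -0.10 and Timm21 at 0.55. Against the Ptpmt1 knockout the lowest p was that of Pam16, a motor subunit that regulates the J protein, with 206, 206 and 227 in knockouts and 129 and 196 in doubles (-0.42 ± 0.17, adjusted p = 0.515). The first double lay far below the knockouts and the second near them. Timm50 was at -0.22 ± 0.12 (SE; adjusted p = 0.656) there (-0.08 with the male pattern as a term), and 1 of 38 members had an unadjusted p under 0.05, against 8.29% of all genes. Against the Hri knockout 2 did, and 5.83% of all genes. Pmpcb had 1395 and 1327 in Hri knockouts and 1044 and 1242 in doubles (-0.26 ± 0.10, adjusted p = 0.789), and Pam16 was at -0.44 ± 0.19 (SE; adjusted p = 0.845). In the interaction 0 members and 4.64% of all genes had an unadjusted p under 0.05, and the lowest were Pam16 (-0.53 ± 0.25, adjusted p = 0.998) and Tomm6os (-1.58 ± 0.91, adjusted p = 0.998). The 2 doubles stood apart from each other. Relative to the control mean, the median member was at -0.03 in the first and 0.16 in the second.

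The PTGC double, which lacks Ptpmt1 and carries the Gcn2 knockout, gave the most one-sided picture of the members, although 0 of 38 were called and 3 had an unadjusted p under 0.05 (7.89%, against 11.5% of all genes). The log2 fold change was below 0 in 33 of 38, against 49.5% of all genes tested, with a median of -0.13. All members were read in the same libraries, so this count is a description. Relative to the control mean, the median member was at 0.01, -0.08 and 0.08 in controls 1, 2 and 3. In doubles 1, 2 and 3 it was at -0.10, -0.20 and -0.06, so double 3 lay above control 2. With any 1 library left out, 31 to 33 were below 0 and the median was -0.17 to -0.08. By role, 6 of 6 TIM23 subunits, 6 of 6 small TIM chaperones, 7 of 9 TOM members, 5 of 6 motor subunits, 3 of 3 SAM members and 2 of 2 TIM22 subunits were below 0. So were 2 of 3 presequence peptidases, 1 of 2 MIA members and the antisense RNA Tomm6os. Mitochondrial ribosomal proteins (78 genes) had a median of -0.13 and all 384 tested genes with a coding length under 350 bases -0.14, with 79.2% below 0. The 10 members of that length had a median of -0.15, with 9 below 0. The 27 longer members had a median of -0.12, with 23 below 0, against 0.003 over all longer genes. Timm21 had 389.6, 342 and 437 in controls and 335, 308 and 285 in doubles (-0.33 ± 0.13, adjusted p = 0.378). Dnajc15, a J protein of the motor, had 478, 455 and 554 in controls and 449, 404 and 357 in doubles (-0.30 ± 0.12, adjusted p = 0.408). In both genes every double lay below every control. Mtx2, a partner of the SAM complex, overlapped between groups and was at -0.28 ± 0.12 (SE; adjusted p = 0.417). Gfer, the oxidase of the MIA pathway, had the highest value of the tested members, 0.20 ± 0.12. Cardiomyocyte markers took 6.74 to 8.61% of the signal over PTGC libraries, 6.74 to 8.18% in controls and 7.89 to 8.61% in doubles, and their part in the shift was not tested.

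Several members come as paralogs or as partners, and these were followed side by side in all tables. Timm17a and Timm17b are alternative subunits of the TIM23 channel. Timm17a had 691, 787 and 779 in FST controls and 753, 817 and 704 in knockouts, with a 95% interval of the log2 fold change of -0.17 to 0.19. Timm17b, on chromosome X, had 238, 234 and 247 in controls and 169, 207 and 268 in knockouts (-0.49 to 0.13). In PHT the intervals for the same contrast were -0.22 to 0.11 and -0.15 to 0.37, so neither paralog moved beyond 1.5-fold in that line. In PTGC the log2 fold changes were -0.12 ± 0.11 and -0.12 ± 0.13, with controls at 1244, 1186 and 1516 for Timm17a and 422, 461 and 339.6 for Timm17b. Doubles had 1213, 1159.9 and 1233 and 371, 374 and 375, within or near the range of the controls.

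Grpel1 and Grpel2 are the nucleotide exchange factors of the motor, of which Grpel2 is known as the stress-linked form. Grpel1 had 422, 495 and 548 in FST controls and 453, 526 and 499.7 in knockouts (0.02 ± 0.11), and 768 and 736 in PHT controls and 739, 803 and 739 in knockouts (0.02 ± 0.11). Grpel2 had 216, 235 and 211 in FST controls and 260.1, 219.8 and 250.5 in knockouts (0.14 ± 0.12), and 350.4 and 345 in PHT controls and 401, 376 and 416 in knockouts (0.19 ± 0.11). All 3 PHT knockouts lay above both controls for Grpel2, which was not called. In PTGC doubles Grpel1 had 814, 718 and 865 against 817, 826 and 978 in controls, and Grpel2 417, 350.2 and 318 against 387, 367 and 396, both overlapping. The J proteins Dnajc15 and Dnajc19 stood at 0.12 ± 0.11 and -0.17 ± 0.23 in the FST knockout and at 0.15 ± 0.13 and 0.16 ± 0.17 in the PHT knockout. Dnajc15 had 253, 234 and 228 in FST controls and 259, 256 and 261 in knockouts, a narrow spread, and in PHT 349 and 388 in controls and 426, 454 and 351 in knockouts. Dnajc19 had 131, 117 and 155 in PTGC controls and 109.6, 128 and 102 in doubles (-0.24 ± 0.16), which overlapped.

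Tomm40 and Tomm40l both had log2 fold changes below 0 in the FST knockout (-0.26 ± 0.12 and -0.23 ± 0.15) and above 0 in the FST double against it (0.31 ± 0.12 and 0.32 ± 0.15), and none of these was called. FST controls had 608, 664 and 869.7 for Tomm40, which overlapped the knockouts in part. In PTGC Tomm40 had 1056, 1104 and 871 in controls and 1054, 1106 and 1060.2 in doubles, and Tomm40l 554, 596 and 536 in controls and 535, 539 and 537 in doubles. In PHT Tomm40l had 555 and 532 in controls and 572, 529 and 574 in knockouts. Exons of Tomm40l overlap Nr1i3 over 45.5% of their length.
The small chaperones Timm8a1 and Timm8b stood far apart in level per kilobase. Timm8b had 299, 311 and 319.8 in FST controls and 231, 243 and 329 in knockouts (-0.23 ± 0.13), with knockout replicate 3 above all controls. In PHT it had 391 and 414 in controls and 369, 384 and 470.2 in knockouts, and in PTGC 508, 519.6 and 584 in controls and 481, 421 and 494 in doubles, the latter all lower. Timm8a1 had only 8.23, 5.82 and 15.4 in FST controls, 50.7, 13.3 and 7.34 in Eif2a mutants, 14.3, 16.1 and 13.9 in knockouts and 19.5, 4.42 and 7.03 in doubles. The first Eif2a mutant stood apart. Its log2 fold change in the FST knockout had an interval of -0.75 to 2.02, too wide to bound a change within 1.5-fold. In PHT it had 95.1 and 106 in controls and 95.9, 114 and 100.04 in knockouts, and in PTGC 36.5, 25.1 and 20.3 in controls and 20.7, 18.4 and 19.3 in doubles.

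Pmpca and Pmpcb form the peptidase that removes presequences. Pmpca had 1144, 1201 and 1189.5 in FST controls, 1264, 1191 and 1241 in Eif2a mutants, 1104, 1129 and 1146 in knockouts and 1067, 1140.2 and 1076 in doubles, with an interval of -0.21 to 0.08 for the knockout. Pmpcb had 828, 887 and 856 in controls and 867, 787 and 845 in knockouts (-0.23 to 0.15). In PHT the intervals were -0.22 to 0.09 and -0.24 to 0.15, and in PTGC -0.27 to 0.15 and -0.40 to 0.03. The interval of Pmpca was the narrowest of the 38 in both FST and PHT. PHT knockouts had 1759, 1826 and 1748 for Pmpca against 1815 and 1896 in controls, and 1228, 1249.7 and 1265 for Pmpcb against 1216 and 1363. In PTGC Pmpca had 2026, 1954 and 2297 in controls and 2053, 1933 and 2039.9 in doubles, and Pmpcb 1686, 1494 and 1714 in controls and 1476, 1338 and 1493 in doubles. Chchd4 and Gfer oxidise small proteins of the intermembrane space. Chchd4 had 241, 222 and 265 in FST controls and 246, 261 and 265 in knockouts (0.09 ± 0.13), and Gfer 138, 119 and 133 in controls and 126, 121 and 148 in knockouts (0.02 ± 0.16). In PHT Chchd4 had 372 and 408 in controls and 296, 401 and 398 in knockouts, and Gfer 212 and 208 in controls and 224, 220.1 and 250.1 in knockouts. In PTGC doubles the 2 partners lay on different sides of 0, with Chchd4 at -0.18 ± 0.11 and Gfer at 0.20 ± 0.12. Gfer had 228, 193 and 219 in controls and 239.8, 234 and 260.0 in doubles, without overlap, and Chchd4 also without overlap 459, 426 and 498 in controls and 424, 384 and 414 in doubles. None of these was called.

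The 12 other members are the TOM subunits Tomm5 and Tomm7, the receptors Tomm20 and Tomm22, the cytosolic co-chaperone Tomm34, the barrel assembly proteins Samm50 and Mtx1, the small chaperones Timm9, Timm10 and Timm10b, the motor scaffold Timm44 and the peptidase Mipep. Their log2 fold changes ran from -0.27 (Tomm5) to 0.11 (Timm9) in the FST knockout, from -0.15 (Tomm34) to 0.21 (Timm10) in the PHT knockout and from -0.23 (Tomm22) to 0.01 (Mipep) in the PTGC double. Over all 13 comparisons they ran from -0.31 (Tomm34, FST double against the Eif2a mutant) to 0.37 (Timm10, FST interaction). None of the 12 had an unadjusted p under 0.05 in any of the 13 comparisons.

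Import partners outside the rule gave 1 call with limma, in a comparison that called 0.878% of all genes. The list of partners was chosen with earlier results of these data known, so a call within it is a description only. Of 15 (Hspa9, Timmdc1, Mtx3, Agk, Aifm1, Immp1l, Immp2l, Xpnpep3, Oxa1l, Mtch1, Mtch2, Dnajc11, Pitrm1, Ghitm and Atad1), Ghitm, an inner membrane protein, fell in the FST double against the Ptpmt1 knockout (-0.63 ± 0.12, adjusted p = 0.0257, limma). Its normalized count was 1642 ± 128 in FST controls, 2406 ± 518 in knockouts and 1532 ± 92.3 in doubles (n = 3 each). The call was lost without double replicate 1, 2 or 3 (adjusted p = 0.0875, 0.103 and 0.0651), without both libraries of fewest genes (0.0818), with the male pattern as a term (0.0708) and with only the compared groups in the fit (0.0800), and it held with edgeR (0.0210) and DESeq2 (0.000200). Hspa9, the Hsp70 that drives the motor, followed at -0.47 ± 0.11 (SE; adjusted p = 0.0589). In the knockout against control Ghitm was at 0.53 ± 0.12 (SE; adjusted p = 0.0719) and Hspa9 at 0.37 ± 0.11 (SE; adjusted p = 0.166) in FST, and at 0.37 ± 0.09 (SE; adjusted p = 0.176) and 0.31 ± 0.09 (SE; adjusted p = 0.493) in PHT. In the PTGC double they were at 0.35 ± 0.12 (SE; adjusted p = 0.343) and 0.41 ± 0.11 (SE; adjusted p = 0.195). Hspa9 ranged 4213 to 4696 in FST controls and 5105 to 7228 in knockouts, and 5879 to 6763 and 7316 to 8346 in PHT, so the groups did not overlap in either table. In PTGC without control replicate 3 both were called (Ghitm 0.48, adjusted p = 0.0146, and Hspa9 0.50, adjusted p = 0.0112). Ghitm was also called in the FST knockout against control without knockout replicate 2 (0.64, adjusted p = 0.0457) or 3 (0.36, adjusted p = 0.0332), and Hspa9 in the FST double against the knockout without knockout replicate 3 (-0.31, adjusted p = 0.0458) and with a filter at a value of 50 (-0.47, adjusted p = 0.0496). Without knockout replicate 3, limma called 6.004% of all genes in the knockout against control and 2.30% in the double against the knockout. DESeq2, which called 2.54% of all genes in the FST knockout, 2.28% in the FST double against it, 0.461% in the PHT knockout and 1.27% in PTGC, called more of these values. They were Ghitm in the FST and PHT knockouts (adjusted p = 0.00195 and 0.0283), and Hspa9 in the FST knockout (0.0217), the FST double against it (0.00294) and the PTGC double (0.0364). With edgeR neither gene was called in these comparisons apart from Ghitm in the FST double against the knockout.

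In the other comparisons no partner was called with limma, and the 2 of lowest p are given. In FST these were Pitrm1 (0.15 ± 0.09) and Immp2l (-0.67 ± 0.53) for the Eif2a mutant and Aifm1 (-0.24 ± 0.09) and Immp2l (-0.96 ± 0.53) for the double, each against control. For the FST double against the Eif2a mutant they were Aifm1 (-0.19 ± 0.09) and Hspa9 (-0.20 ± 0.11), and for the interaction Ghitm (-0.64 ± 0.17) and Hspa9 (-0.57 ± 0.16). In PHT they were Aifm1 (0.14 ± 0.09) and Immp1l (0.19 ± 0.13) for the Hri knockout, and Aifm1 (0.25 ± 0.09) and Pitrm1 (0.21 ± 0.08) for the double, each against control. For the PHT double they were Hspa9 (-0.30 ± 0.09) and Immp2l (-1.07 ± 0.35) against the Ptpmt1 knockout, and Immp2l (-0.56 ± 0.38) and Pitrm1 (0.11 ± 0.08) against the Hri knockout. The PHT interaction gave Ghitm (-0.35 ± 0.13) and Hspa9 (-0.36 ± 0.13). Aifm1 works with Chchd4, Immp1l and Immp2l belong to the inner membrane peptidase, and Pitrm1 degrades cleaved presequences. Among 19 mitochondrial chaperones and proteases, 1 was called over all 13 comparisons, the matrix protease Lonp1, which rose in the PTGC double from 1288 ± 124 to 2122 ± 29.9 (0.72 ± 0.10, adjusted p = 0.00306, limma, n = 3 and 3). That comparison called 0.743% of all genes. In the Ptpmt1 knockouts Lonp1 was at 0.01 ± 0.17 (SE; adjusted p = 0.991) in FST and 0.05 ± 0.10 (SE; adjusted p = 0.999) in PHT. The FST knockouts were spread on both sides of the controls, from 666 to 1283 against 827 to 892.5. Without knockout replicate 1, 2 or 3 the FST value was 0.11, 0.20 or -0.27.

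Levels of some members also differed between the lines. Because the tables were normalized separately, each member was expressed as its share of the summed import signal of its library, and these shares are given as a description. For 34 of 38 members the highest table median was at most 1.5 times the lowest, with a median ratio of 1.13. The 4 exceptions were Timm8a1 (4.87), Timm23 (3.46), Tomm5 (2.47) and Pam16 (1.66). Timm23 took 0.653 to 1.16% of the import signal in FST libraries, 2.87 to 3.67% in PHT and 0.896 to 1.09% in PTGC, with no overlap between PHT and FST. Tomm5 took 0.549 to 0.911%, 1.43 to 1.9% and 0.566 to 0.764%. Timm8a1 took 0.0305 to 0.357%, 0.319 to 0.477% and 0.0741 to 0.142%, and Pam16 0.5 to 0.854%, 0.565 to 0.942% and 0.382 to 0.596%. The receptor Tomm20 also lay higher in every PHT library (5.29 to 6.21%) than in any FST library (3.62 to 4.52%). Several of these genes have near-identical copies. Of the 50-base words in the exons of Timm23, 83.9% also occur in exons of other annotated genes (Gm10273, Gm10171, Gm10233 and Gm16209). For Pam16 it was 88.7% (Gm9803 and Glis2), for Timm8a1 41% (Gm9797), and for Tomm5 and Tomm20 5.39 and 6.24%. The sources used here do not say how such reads were assigned, so the levels of Timm23, Pam16 and Timm8a1 are uncertain, and the part of shared sequence in the difference between tables was not tested. Levels of Tomm6 (81.4% of words shared, with Gm21981, Tomm6os and Usp49) and Tomm40l (61.8%, with Nr1i3) are uncertain too.

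**Figure D5:**
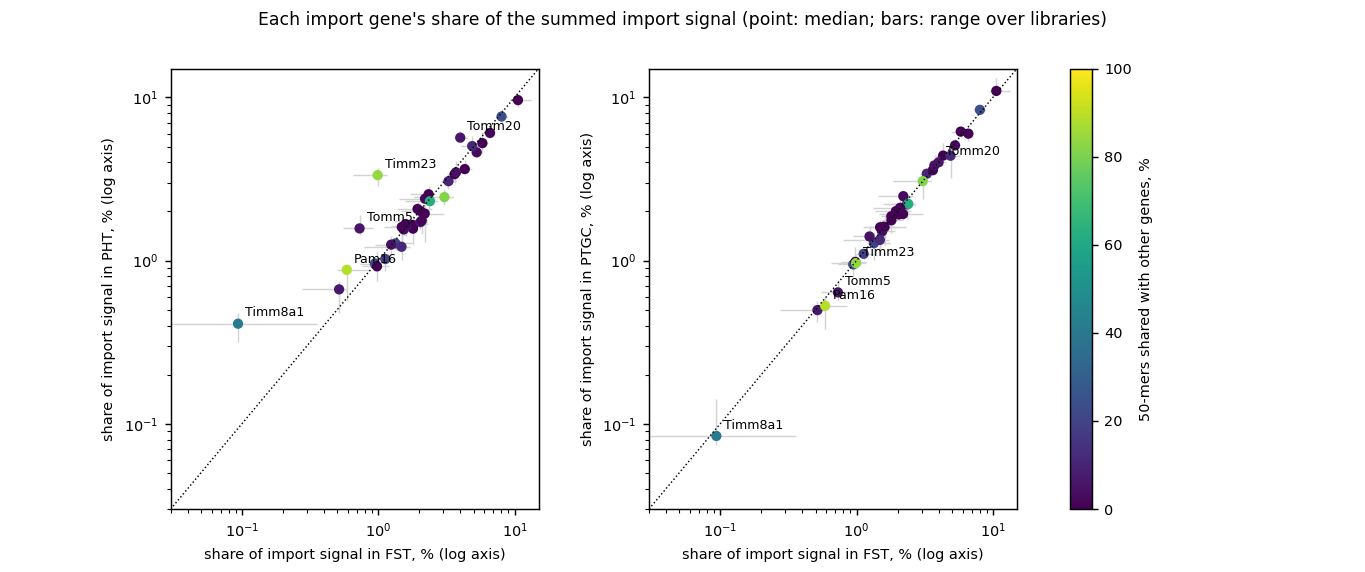
Each point is 1 import gene, placed by its median share of the summed import signal in FST (horizontal, log axis, %) and in PHT or PTGC (vertical, log axis, %), with bars for the range over libraries and colour for the percentage of 50-base exon words that other genes share. Timm8a1, Timm23, Tomm5, Pam16 and Tomm20 lie above the diagonal in PHT, while in PTGC the points follow it.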

How the data were processed

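RNA-seq libraries made with a KAPA RNA Hyper kit with RiboErase were compared within each line. The deposited values are normalized counts (signal): the authors divided the counts of each library by 1 size factor, as the values themselves show, and 100% of values came out as whole reads (within 0.1) once multiplied back. STAR 2.5.3a, DESeq2 1.12.4 and mm10 are listed in the submitters' processing notes. Which counter, gene annotation and strand setting were used is not given in the sources used here. Of the symbols, 26 per table had been turned into dates.

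Each table was fitted on its own with limma 3.58.1 (R 4.3.3) on log2(value + 1), with all groups in 1 fit, a mean-variance trend, and genes with a value of at least 10 in as many libraries as the smallest group. P-values were adjusted by Benjamini-Hochberg over all genes, with a threshold of 0.05. The scripts were tested on simulated data. Genes were named as the 2 members and the 2 import partners of lowest p in each comparison, plus fixed pairs of paralogs and partners. Tomm40 and Timm13 in the FST knockout, and Gfer, were added after their values were seen. Tomm70a in the FST knockout, Tomm6 in the FST double against it and Mtx2 in PTGC were also named though they fall outside this rule. Alternatives were edgeR 4.0.16 and DESeq2 1.42.0 on recovered reads, other pseudocounts, filters and scalings, a term for the male pattern, and leaving out each library. Coordinates and exon lengths are from GENCODE vM21 (GRCm38) and promoters from RefSeq (GRCm38.p6). The members and lists were chosen with earlier results of these data known.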

Additional observations from a re-analysis of the deposited data

Results flagged for a closer look

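Timm8b, a small chaperone of the intermembrane space, and Timm21, a subunit of TIM23, lay on opposite sides of their controls in different lines. For Timm8b the log2 difference of the double from control was -0.127 in FST and 0.221 in PHT, with every double below the control mean in the first and above it in the second. In PTGC it was -0.208, again opposite to PHT. For Timm21 the double lay 0.345 from control in PHT and -0.328 in PTGC. The second mutation differs between these lines, the tables were normalized separately, and these differences were not tested.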

How the results depend on the processing

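The count of called members was 0 in 249 of 252 comparisons recomputed under an alternative. In the FST Ptpmt1 knockout against control it was 1 with DESeq2 (Tomm6) and 0 to 3 with 1 library left out, the 3 being without Ptpmt1 knockout replicate 3. In the FST double against the Ptpmt1 knockout it was 0 to 2 with 1 library left out. For the 2 members of lowest p in each comparison (26 pairs of gene and comparison), 502 values were recomputed, of which 0 reversed, 498 kept their direction and side of the threshold and 4 became called. Beyond those 26, Tomm70a in the FST knockout and Tomm6 in the FST double against it also became called without Ptpmt1 knockout replicate 3. The median log2 fold change of the members moved by more than the SD between libraries of a group (0.0385 in FST, 0.078 in PHT, 0.0759 in PTGC) in 4 of 94: to -0.01 with the male pattern as a term in the FST knockout, to -0.02 without Ptpmt1 knockout replicate 1 and -0.00 without double replicate 1 in the FST double against the knockout, and to -0.07 without double replicate 2 in the PHT double against the knockout. Leaving out 1 library gave medians of -0.09 to -0.04 in the FST knockout, -0.02 to 0.07 in the FST double against it, 0.00 to 0.05 in the PHT knockout, -0.07 to 0.10 in the PHT double against it and -0.17 to -0.08 in PTGC. Within those ranges, every other shift was below that SD. The cause of these shifts was not tested. Other scalings moved the median of all genes by at most 0.0163. No paired analysis was possible because nothing in the labels ties a library of one genotype to a library of another. Groups of 2 or 3 libraries leave wide intervals for genes with few reads such as Timm8a1.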
